A study of Mus musculus with 30 samples.

Results

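The small heat shock genes measured here were Hspb1, Hspb2, Hspb3, Hspb6, Hspb7, Hspb8 and Cryab, 7 mouse genes of 1 chaperone family among 18193 genes named on the arrays. Their members were all probe sets of the A and the B chip that are annotated to only 1 of these genes, 14 probe sets of the 35041 with 1 gene. On A there were 13, and the only one on B was that of Hspb6. Following textbook usage, Hspb2, Hspb3 and Hspb7 were treated as muscle-restricted (5 probe sets) and Hspb1, Hspb6, Hspb8 and Cryab as general (9 probe sets). Of the 14, 12 lay in the upper 60% of their chip by mean log2 value and were tested, among 27083 tested probe sets in all. The untested ones were 1421289_at of Hspb7 and 1435837_at of Cryab.

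The samples were total RNA from mouse cell cultures of leg muscle taken at 5 times, 0, 4, 12, 24 and 48 h. Each time had 3 replicates, and each was hybridised to 2 Affymetrix chips, which made 30 arrays. No genotype, strain, treatment, age or medium is given in the sources used here, nor what began at 0 h. The labels do not say that replicates were separate cultures, and the spread that the p-values rest on may be a technical one between arrays. Replicate 3 stood apart from replicates 1 and 2 on both chips: with hour accounted for, 33.9% of the tested probe sets on A and 14.8% on B differed between them (limma, adjusted p under 0.05). Results are therefore given over all arrays, with a term for replicate 3, and for replicates 1 and 2 alone. The array medians of intensity lay between 154.7 and 183.4 on A and between 220 and 256.2 on B.

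Small heat shock proteins bind unfolding proteins without using ATP and hold them in large oligomers built around a shared alpha-crystallin domain, until ATP-driven chaperones such as Hsp70 refold or discard them. In skeletal muscle they sit on the Z-disc, on desmin filaments and on titin, and several are induced during muscle differentiation rather than by heat. HSPB2 and HSPB3 form a complex with each other that is found in muscle, HSPB7 is most abundant in heart and skeletal muscle, and HSPB8 works with BAG3 to clear damaged filamin. CRYAB protects desmin, HSPB1 responds to heat and phosphorylation by MAPKAPK2, and HSPB6 is abundant in skeletal, heart and smooth muscle.

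Promoter sequences were taken from RefSeq (GRCm38.p6), 300 bases each from 250 before to 50 after the start of transcription. The table used held 6 windows for 5 of the genes, and Hspb2 and Cryab had none in it. They are shown so that the upstream sequences of the muscle-restricted and the general genes can be set beside their time courses. Read 5′ to 3′ on the strand of the gene, capitals mark matches to the heat shock element core GAANNTTC and to the MEF2 site, the latter bound by a muscle transcription factor.
Hspb3 (chr13:113663627-113663926, minus strand): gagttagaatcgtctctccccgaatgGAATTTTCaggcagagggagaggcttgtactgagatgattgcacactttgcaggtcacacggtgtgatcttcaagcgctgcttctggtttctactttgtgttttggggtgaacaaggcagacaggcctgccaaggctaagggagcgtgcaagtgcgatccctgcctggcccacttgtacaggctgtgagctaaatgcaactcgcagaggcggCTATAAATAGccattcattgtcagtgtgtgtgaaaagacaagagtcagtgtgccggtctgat
Hspb7 (chr4:141420529-141420828, plus strand): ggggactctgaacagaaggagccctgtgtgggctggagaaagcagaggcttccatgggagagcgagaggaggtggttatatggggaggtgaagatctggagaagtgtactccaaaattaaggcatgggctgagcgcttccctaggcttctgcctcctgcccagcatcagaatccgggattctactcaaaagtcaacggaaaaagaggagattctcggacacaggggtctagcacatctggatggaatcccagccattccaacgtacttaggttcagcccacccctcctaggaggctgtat
Hspb1 (chr5:135887669-135887968, plus strand): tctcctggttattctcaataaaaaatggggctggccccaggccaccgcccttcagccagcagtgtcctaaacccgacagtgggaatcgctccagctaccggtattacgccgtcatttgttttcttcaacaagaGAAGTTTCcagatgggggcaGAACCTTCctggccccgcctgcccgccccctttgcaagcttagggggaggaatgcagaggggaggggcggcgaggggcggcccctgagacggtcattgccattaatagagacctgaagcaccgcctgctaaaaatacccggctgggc
Hspb8 (chr5:116422815-116423114, minus strand): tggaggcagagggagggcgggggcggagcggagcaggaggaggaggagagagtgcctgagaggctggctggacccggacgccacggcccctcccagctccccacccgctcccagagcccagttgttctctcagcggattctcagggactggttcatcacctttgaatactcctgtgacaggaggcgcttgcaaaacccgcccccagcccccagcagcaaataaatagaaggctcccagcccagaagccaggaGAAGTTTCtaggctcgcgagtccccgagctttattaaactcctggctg
Hspb6 second start (chr7:30553051-30553350, plus strand): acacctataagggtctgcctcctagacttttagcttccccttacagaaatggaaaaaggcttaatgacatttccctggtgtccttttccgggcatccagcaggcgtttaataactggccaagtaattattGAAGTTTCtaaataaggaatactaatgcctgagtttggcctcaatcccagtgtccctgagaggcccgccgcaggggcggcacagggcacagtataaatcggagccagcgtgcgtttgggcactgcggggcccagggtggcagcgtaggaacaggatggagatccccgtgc

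The 2 heat shock cores of Hspb1, the classic heat-inducible member, lay at -117 to -110 and -97 to -90 from the first transcribed base. Hspb3 held 1 such core at -224 to -217, the second start of Hspb6 held 1 at -120 to -113, and Hspb8 held 1 at 3 to 10, inside the transcribed part. No core was found in the Hspb7 window or in that of the first Hspb6 start, which is not shown. Among all 32851 promoter windows of this length, 7.86% held the core. The only MEF2 match was in Hspb3 at -12 to -3, overlapping a TATAAA, and 3.19% of all windows held one. E-boxes (CANNTG), bound by MyoD and myogenin, were found in Hspb1 and Hspb3 (2 each), Hspb7 and Hspb8 (1 each), and in 72.3% of all windows. The MCAT letters CATTCC occurred once each in Hspb1 and Hspb7 (14.7% of all windows), TATAAA in Hspb3 and in the second Hspb6 window (13.6%), and the CArG box in none of the 6 (1.63%). All motifs were searched on both strands. A match to letters is a description and does not show that a factor binds there.

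All 3 muscle-restricted genes were higher at 24 and at 48 h than at 0 h, whereas no general gene passed the test over all arrays. On the log2(intensity + pseudocount) scale, on which dim genes' changes are understated, the rises from 0 to 24 h were 1.35 for Hspb2, 1.77 for Hspb3 and 1.77 for Hspb7. Called means an adjusted p under 0.05 in limma, over all tested probe sets of the chip. At 24 h, 4 of the 11 tested member probe sets on A were called, all higher, against 1.61% of all tested A probe sets. At 48 h it was the same number, against 1.42%, and these were the probe sets of the same 3 genes. The arrays at 24 h all lay above those at 0 h in 8 member probe sets (9.58% of tested A probe sets), and at 48 h in 4 (9.89%).

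**Figure D1:**
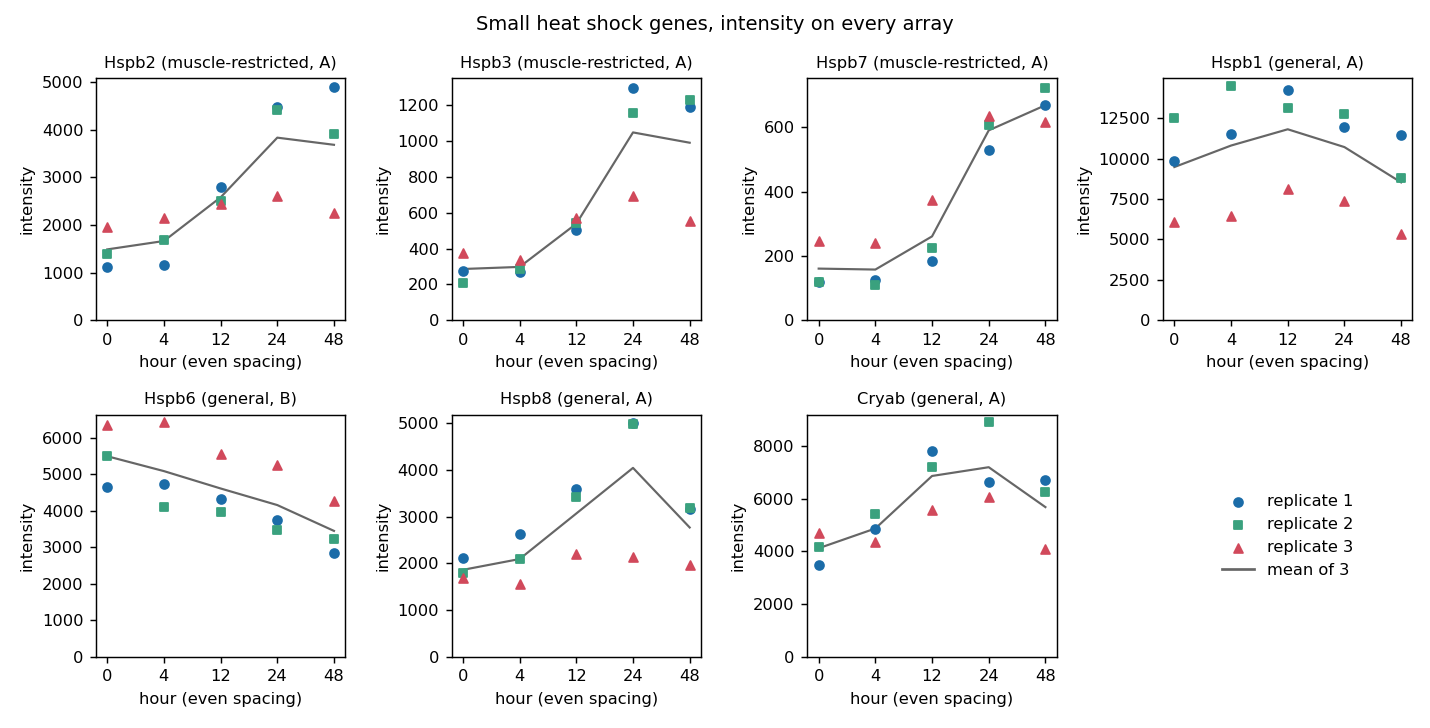
Intensity (y axis, linear, from 0, in a separate scale for each gene) of the brightest probe set of each gene against hour (x axis, evenly spaced). Each point is 1 array, marked by replicate number, and the line joins the means of 3. Hspb2, Hspb3, Hspb7, Hspb8 and Cryab sat above their 0 h arrays at 24 h, Hspb6 lay below its 0 h arrays at 48 h, and replicate 3 of Hspb1 lay under replicates 1 and 2 at all 5 hours.

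Hspb2, whose protein binds the myotonic dystrophy kinase DMPK, was measured by 1429888_a_at. Its intensity in replicates 1, 2 and 3 was 1119, 1394 and 1948 at 0 h and 1158, 1679 and 2154 at 4 h. It reached 2789, 2512 and 2444 at 12 h, 4479, 4413 and 2620 at 24 h, and 4894, 3910 and 2257 at 48 h. From 12 h on, the lowest array stood above the highest array at 0 h, and replicate 3 was the highest at 0 and 4 h and the lowest from 12 h on. The mean went from 1487 ± 422 (SD, n = 3) at 0 h to 3837 ± 1055 at 24 h and 3687 ± 1333 at 48 h. In limma the log2 rise was 1.35 (SE 0.30) at 24 h with adjusted p = 0.0264, and 1.26 (SE 0.30) at 48 h with adjusted p = 0.0455. Between arrays of the same number it was 1.97, 1.64 and 0.42 at 24 h and 2.10, 1.47 and 0.21 at 48 h for replicates 1, 2 and 3. The 24 h call was lost without replicate 1 or 2 at 0 h or at 24 h (adjusted p 0.114 to 0.141), and with only the arrays of the hours compared (adjusted p = 0.0567). At 48 h it was lost without replicate 1 or 2 at 0, 24 or 48 h, without replicate 2 at 4 h, and without any array at 12 h (adjusted p 0.0520 to 0.194). It was also lost with median centring, without the filter, without the trend and with only the arrays of the hours compared (adjusted p 0.0543 to 0.125), so that it held in 14 of 28 alternatives.

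Hspb3, the partner of Hspb2, was read by 1449872_at. Its intensity was 275.3, 205.0 and 376.2 at 0 h, 266.0, 287.7 and 337.7 at 4 h, and 502.3, 543.8 and 569.4 at 12 h. At 24 h the arrays read 1296, 1156 and 694.8, and at 48 h they read 1190, 1229 and 553.9. All arrays from 12 h on were above all those at 0 and 4 h, and replicate 3 was the lowest at the last 2 hours. The log2 rise was 1.77 (SE 0.29, limma adjusted p = 0.00678) at 24 h and 1.65 (adjusted p = 0.0119) at 48 h, with 2.12, 2.34 and 0.84 at 24 h in replicates 1, 2 and 3. Without replicate 1 at 24 h the first call was lost (adjusted p = 0.0510), and the second was lost without replicate 1 or 2 at 0 or at 48 h (adjusted p 0.0550 to 0.0872) and with only the arrays of the hours compared (adjusted p = 0.0789).

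Hspb7, known mainly from heart and skeletal muscle, was covered by 3 probe sets. By 1421290_at its intensity was 118.1, 117.9 and 245.2 at 0 h, 123.5, 107.8 and 241.0 at 4 h, and 183.4, 225.8 and 373.0 at 12 h. By the same probe set it was 529.3, 609.1 and 634.6 at 24 h and 669.2, 722.1 and 617.0 at 48 h. The groups at 24 and 48 h did not overlap that at 0 h, and replicate 3 was the highest array up to 24 h and the lowest at 48 h. The log2 rise was 1.77 (SE 0.30, limma adjusted p = 0.00678) at 24 h and 1.95 (SE 0.30, adjusted p = 0.00433) at 48 h. Of the called probe sets, it was the only one that remained called under all 28 alternatives at both hours, with adjusted p of at most 0.0484 and 0.0394. By 1434927_at, Hspb7 rose by 1.90 (adjusted p = 0.0182) and 2.11 (adjusted p = 0.0126), in limma. Those calls were lost without replicate 1 or 2 at 0 h or at the later hour (adjusted p 0.0751 to 0.0956 at 24 h, 0.0637 to 0.0720 at 48 h). The untested 1421289_at of Hspb7 read 29.2, 36.2 and 89.5 at 0 h and 237.2, 232.1 and 218.3 at 48 h, and is given without a test.

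Of the general members, Cryab came closest to the threshold. By 1416455_a_at its intensity was 3499, 4168 and 4695 at 0 h, 4861, 5404 and 4348 at 4 h, and 7804, 7215 and 5572 at 12 h. It was 6627, 8903 and 6059 at 24 h and 6729, 6241 and 4077 at 48 h. The arrays at 12 and 24 h all stood above those at 0 h, while at 48 h replicate 3 had returned among the 0 h arrays. The log2 difference of Cryab was 0.73 (SE 0.20, limma adjusted p = 0.424) at 12 h, 0.79 (adjusted p = 0.0506) at 24 h and 0.44 (adjusted p = 0.318) at 48 h. With a term for replicate 3, this probe set of Cryab was called at 12 h (adjusted p = 0.0428) and 24 h (adjusted p = 0.00401), and its adjusted p at 48 h was 0.1. Its other tested probe set, 1434369_a_at, differed by 0.84 at 24 h (adjusted p = 0.0533, and 0.0031 with that term) and by 0.60 at 48 h (adjusted p = 0.187, and 0.0293 with that term). Both were called at 24 h without replicate 3 at 24 h (adjusted p = 0.0331 and 0.0359), without replicate 1 at 48 h (0.0468 and 0.0310) or without replicate 3 at 48 h (0.0174 and 0.00402), and 1416455_a_at also without replicate 3 at 12 h (0.0425). Without replicate 3 at 48 h, 1434369_a_at was called at 48 h too, at 0.92 on the log2 scale (adjusted p = 0.00461). The untested one, 1435837_at, stayed between 26.2 and 78.9 in intensity on all arrays and was not tested.

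Hspb8, the BAG3 partner, had a 24 h peak that replicate 3 did not share. By 1417013_at its intensity was 2109, 1790 and 1683 at 0 h, 2620, 2093 and 1563 at 4 h, and 3591, 3413 and 2196 at 12 h. It was 4999, 4981 and 2146 at 24 h and 3155, 3184 and 1962 at 48 h. Replicate 3 was the lowest at every hour, yet its 24 h array still lay just above the highest 0 h array, so that the groups did not overlap. The log2 difference of 1.01 (SE 0.31) at 24 h did not pass the test over all arrays (limma, adjusted p = 0.105). With a term for replicate 3 it did, with adjusted p = 0.000634, and replicates 1 and 2 alone gave 1.35 (adjusted p = 3.47e-05). In those replicates 6.52% of tested A probe sets were called higher at 24 h and 5.95% at 48 h, among them 8 of the 11 members at each hour. Hspb8 by 1417014_at differed by 1.03 at 24 h (adjusted p = 0.134, and 0.00103 with that term). Without replicate 3 at 24 h, the differences were 1.42 for each probe set (adjusted p = 0.00897 and 0.0227). From 24 to 48 h, replicates 1 and 2 alone showed a fall by 0.65 on the log2 scale by 1417013_at (adjusted p = 0.0184), as 1.92% of A probe sets did. The remaining Hspb8 probe set, 1456434_x_at, went the other way at 24 h (-0.44, adjusted p = 0.636), with intensities of 398.7, 229.8 and 122.6 against 320.1, 335.3 and 302.0 at 0 h. Probe sets with this suffix may also bind other transcripts.

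Hspb1, also called Hsp25 or Hsp27, did not pass the test at any hour. By 1422943_a_at its intensity was 9854, 12510 and 6066 at 0 h, 11492, 14504 and 6426 at 4 h, and 14219, 13133 and 8091 at 12 h. It was 11964, 12787 and 7384 at 24 h and 11464, 8780 and 5338 at 48 h. In every hour replicate 3 was the lowest, and all hours overlapped. The log2 difference from 0 h was 0.20 (SE 0.36, limma adjusted p = 0.847) at 24 h and -0.16 (adjusted p = 0.894) at 48 h. The second probe set, 1425964_x_at, gave 0.31 and -0.18 (adjusted p = 0.748 and 0.889). Neither probe set was called against 0 h with a term for replicate 3, where the adjusted p at 24 h was 0.339 and 0.0507. Between arrays of the same number, 1425964_x_at differed at 24 h by 0.39, 0.15 and 0.40 in replicates 1, 2 and 3. With a term for replicate 3, its fall by 0.49 on the log2 scale from 24 to 48 h passed (adjusted p = 0.0176), as did 1.2% of A probe sets in that direction, against an adjusted p of 0.74 over all arrays.

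Hspb6, also called Hsp20, was the only member whose mean was lower at each successive hour, on the B chip by 1436332_at. Its intensity was 4650, 5502 and 6340 at 0 h, 4728, 4095 and 6444 at 4 h, and 4319, 3976 and 5546 at 12 h. It was 3755, 3475 and 5246 at 24 h and 2854, 3229 and 4270 at 48 h. The 48 h arrays were all below the 0 h arrays, which held for 9.01% of tested B probe sets, and replicate 3 was the highest at every hour. The log2 difference at 48 h was -0.67 (SE 0.22), with adjusted p = 0.156 in limma over all arrays, where 0.459% of B probe sets were called lower. It was -0.69, -0.76 and -0.56 in replicates 1, 2 and 3, so replicate 3 moved as the others did. With a term for replicate 3 it was called (adjusted p = 0.00207), as were 2.63% of B probe sets in the lower direction, and in replicates 1 and 2 alone it was -0.73 (adjusted p = 0.00844, 3.55% of B probe sets).

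**Figure D2:**
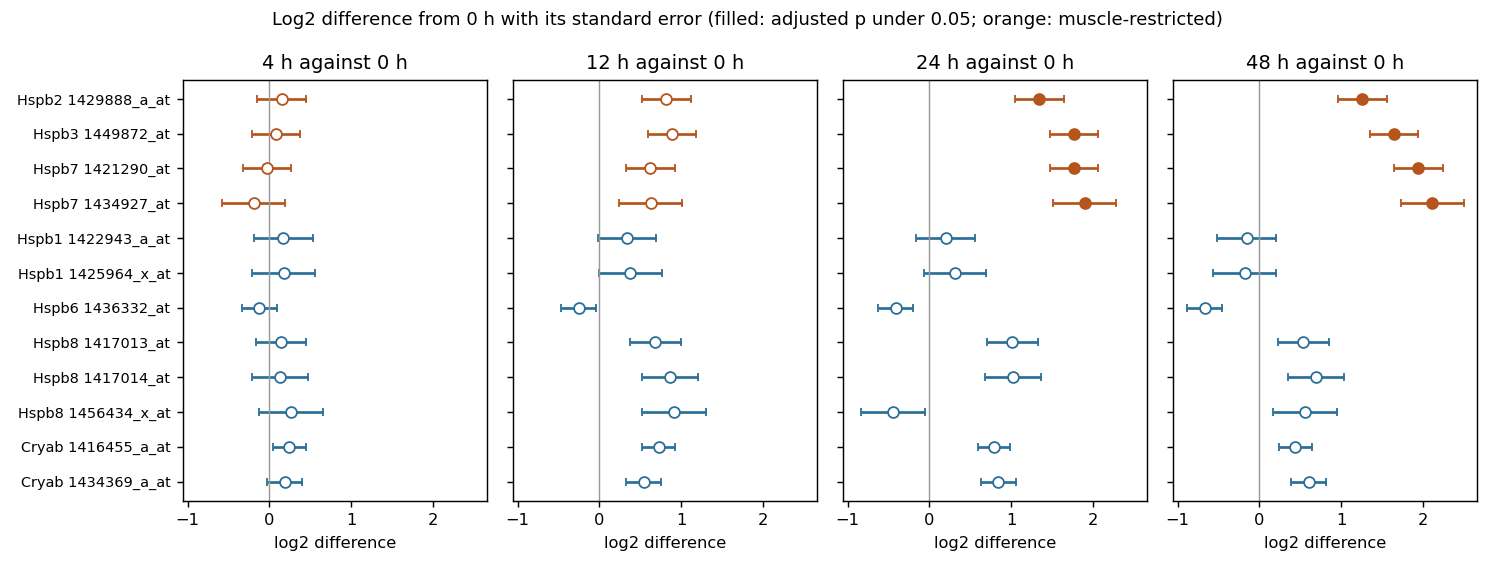
Log2 difference from 0 h (x axis) of each tested member probe set at 4, 12, 24 and 48 h (panels), with its standard error as bars. Filled points have an adjusted p under 0.05 over all arrays, and orange marks the muscle-restricted genes. The filled points are the 4 probe sets of Hspb2, Hspb3 and Hspb7 at 24 and at 48 h, from 1.26 to 2.11.

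The timing of the changes was less firm than their presence. At 4 h none of the 12 tested probe sets was called by limma and 0 had an unadjusted p under 0.05, with 0% of all A and B probe sets called. At 12 h none was called over all arrays, with 0% of all on A and 0.0074% on B, and 7 had an unadjusted p under 0.05. Counts at an unadjusted p under 0.05, here and below, have no share over all probe sets beside them and carry no weight as calls. At that hour the arrays of Hspb2, Hspb3, Cryab and Hspb8 were all above the 0 h arrays, in 7 probe sets, against 5.84% of tested A probe sets. With a term for replicate 3, Cryab and Hspb8 were called at 12 h in 3 of the 11 A probe sets (0.545% of all, higher). In replicates 1 and 2 alone, 6 were called, of Hspb2, Hspb3, Hspb8 and Cryab (1.86%, higher). None of the 12 was called for the steps from 4 to 12, 12 to 24 or 24 to 48 h over all arrays, where 4, 4 and 1 had an unadjusted p under 0.05. Of all probe sets 0% were called for the first 2 steps on either chip, and 0.0147% on A and 0.126% on B for the last. The step of Hspb7 from 12 to 24 h was 1.15 for 1421290_at (adjusted p = 0.587 over all arrays, and 0.0224 with a term for replicate 3, where 0.081% of A probe sets rose). For 1456434_x_at of Hspb8 this step was the largest in size among the 12, at -1.36 (adjusted p = 0.647). Over all hours together, the moderated F test called Hspb2 (adjusted p = 0.0491), Hspb3 (0.00800) and Hspb7 (0.00428 and 0.00995), 4 of 11 on A against 1.97%. With a term for replicate 3, the F test called 11 of the 12 members, against 14% of A and 6.65% of B probe sets.

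Set side by side with 1 probe set per gene, the medians of the classes lay apart at 24 and 48 h. The median log2 difference from 0 h of the 3 muscle-restricted genes was 0.08 at 4 h, 0.82 at 12 h, 1.77 at 24 h and 1.65 at 48 h. The same median of the 4 general genes was 0.16, 0.51, 0.49 and 0.14, and that of all tested A probe sets was -0.05 at 24 h and 0.01 at 48 h. The medians of the classes thus differed by 1.27 at 24 h (1.38, 1.56 and 0.52 in replicates 1, 2 and 3, SD 0.55) and by 1.51 at 48 h (1.70, 2.32 and 0.72, SD 0.81). Called genes were 3 of 3 against 0 of 4 at both hours (limma), with 2 of the 4 at an unadjusted p under 0.05 each time. This contrast in counts depends on replicate 3: with a term for it, 2 of the 4 general genes (Cryab and Hspb8) were called higher at 24 h and 1 (Hspb6) lower, the latter among 1.81% of B probe sets. In that fit 8 of the 11 member probe sets on A were called higher at 24 h against 6% of all, and 7 at 48 h against 5.1%. Where Hspb6 and Cryab, both abundant in muscle, were counted as muscle-restricted, the differences of medians were 0.74 and 1.07. The members were chosen with results of these data known, so the classes were not tested against each other.

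**Figure D3:**
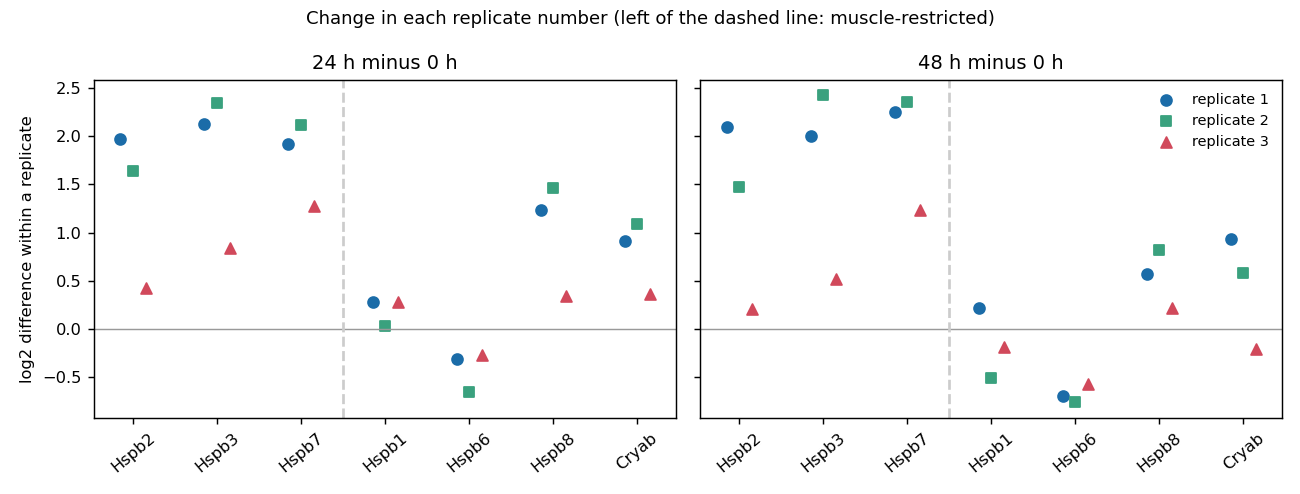
Log2 difference from 0 h (y axis) between arrays of the same replicate number, for the brightest probe set of each gene (x axis), at 24 h and 48 h (panels). At 24 h the muscle-restricted genes lay between 1.64 and 2.34 in replicates 1 and 2 and between 0.42 and 1.28 in replicate 3, and Hspb6 was below 0 in all 3 replicates at both hours.

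Replicate 3 differed from replicates 1 and 2 in 8 of the 12 tested member probe sets. With hour in the fit, Hspb1 was lower in it by 0.86 and 0.95 on the log2 scale for its probe sets (limma adjusted p = 8.84e-07 and 2.96e-08) and Hspb8 by 0.67 and 0.74 (adjusted p = 0.000114 and 9.1e-05). By these probe sets replicate 3 read below replicates 1 and 2 at 5 of 5 hours for both genes. By 1456434_x_at of Hspb8 it was below both at 4 of 5 hours (-0.54, adjusted p = 0.0559). Hspb6 was higher in it by 0.46 (adjusted p = 0.000339), above both at 5 of 5 hours, and Hspb7 by 0.52 and 0.59 (adjusted p = 0.00811 and 0.0283). Cryab differed by -0.27 and -0.33 (adjusted p = 0.0612 and 0.0316), Hspb2 by -0.11 (adjusted p = 0.679) and Hspb3 by -0.18 (adjusted p = 0.475). Replicate 3 of Hspb2 and Hspb3 read above both others at 2 and 3 of the 5 hours and below both at 3 and 2. The share of all tested probe sets that differed, given above, is the background for this count. Some markers of skeletal muscle and of other cell types also moved with this split, while others of the same lists did not. Of the muscle markers, Des by its brighter probe set differed by -0.49 (limma adjusted p = 8.64e-05) and Myod1 by -0.46 (adjusted p = 0.000284). Chrna1 differed by -0.32 (adjusted p = 0.00336) and Myog by -0.22 (adjusted p = 0.0197), while the other muscle markers did not pass. Endothelial Tek differed by -0.59 (adjusted p = 0.00126) and macrophage Adgre1 by -0.52 (adjusted p = 0.0246), while Kdr and Csf1r did not pass. Rgs5, a pericyte gene, was lower in replicate 3 (a log2 difference of -3.96, adjusted p = 6.14e-12), with mean intensities of 69.4 against 1603, and the fibroblast collagen Col1a2 was higher by 0.82 (adjusted p = 1.33e-05). Tagln differed by 0.0079 (adjusted p = 0.963) and Col3a1, by its brighter probe set, by 0.27 (adjusted p = 0.22). For Acta2 the difference was -0.19 on A (adjusted p = 0.0594) and -0.58 on B (adjusted p = 0.0032). The part of any of these markers in the differences of the members was not tested.

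Among the members, log2 values over the 15 A arrays were most alike for Hspb2 and Hspb3 (Pearson r = 0.95), followed by Hspb3 and Hspb7 (0.89), Hspb2 and Hspb7 (0.84) and Hspb8 and Cryab (0.82). Hspb1 had r = 0.08 with Hspb2, 0.03 with Hspb3 and -0.36 with Hspb7. These values describe 15 arrays that share hours and the offset of replicate 3, and carry no test. Of 7891 genes on A, those most like Hspb2 were Cacnb1, a subunit of the muscle calcium channel, at r = 0.98, and Mybph and Itgb1bp2, both at 0.96. Closest to Hspb3 were Ldb3, a Z-disc protein (0.98), the muscle transcription factor Mef2c (0.98) and Cox8b (0.98). Myh7, the slow myosin heavy chain, and the Z-disc gene Myoz2 came nearest to Hspb7, each at 0.98, before Slco3a1 at 0.97. The nearest genes to Hspb8 were Dnaja4 (0.97), Svil (0.95) and Dnajb6 (0.95), of which Dnaja4 and Dnajb6 encode Hsp40 co-chaperones. For Cryab they were Syne1 (0.94), Prkaca (0.93) and Atp2a2 (0.93), and for Hspb1 they were Serf2 (0.97), Acadvl (0.96) and Pdlim4 (0.96). Hspb6, among 6720 genes on B, was nearest to Lurap1l (0.92), Commd10 (0.90) and Spc24 (0.90).

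Of 10 genes for partners and clients of small heat shock proteins, all tested, 2 rose at 24 h and 1 at 48 h over all arrays, against 1.61% and 1.42% of tested A probe sets. When replicate 3 had a term, 4 and 2 were called higher, against 6% and 5.1%. The list had median log2 differences of 0.33 and 0.06. Actn2, the Z-disc alpha-actinin, went from an intensity of 822.7 ± 573.8 (SD, n = 3) at 0 h to 3357 ± 284 at 24 h and 4722 ± 1743 at 48 h, rises of 2.19 and 2.60 on the log2 scale (limma adjusted p = 0.0122 and 0.00585). Mapkapk2, the kinase of HSPB1, rose by 0.57 at 24 h (adjusted p = 0.0202), and its difference at 48 h was 0.22 (adjusted p = 0.426). At 48 h, Bag1, a nucleotide exchange factor of Hsp70, differed by 0.39 (adjusted p = 0.28), the ubiquitin ligase Stub1 by -0.26 (adjusted p = 0.363) and Synpo2, measured on A, by -0.48 (adjusted p = 0.623). The B probe sets of Synpo2 were also lower at 48 h in their means: the brightest went from an intensity of 9212 ± 1120 to 5957 ± 1556 (adjusted p = 0.262, and 0.0158 with a term for replicate 3), and another from 1601 ± 1244 to 61.7 ± 44.3 (adjusted p = 0.0619, and 0.00353). The latter read 2203, 2430 and 171.1 at 0 h and 96.2, 11.7 and 77.3 at 48 h in replicates 1, 2 and 3. Most of its fall in the mean was thus that of replicates 1 and 2.

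Chaperones that heat induces along with Hspb1 and Cryab gave 0 calls by limma among 16 tested genes at either hour (2 at an unadjusted p under 0.05 at each). With 1.61% and 1.42% of all tested A probe sets called higher, so few calls in a list of this size are near the background. The list had median log2 differences of 0.12 at 24 h and -0.01 at 48 h. The limma differences at 48 h with the smallest adjusted p were those of Dnajb1 (-0.50, adjusted p = 0.226), Cacybp (0.27, adjusted p = 0.259), Stip1 (-0.23, adjusted p = 0.392) and Fkbp4 (-0.30, adjusted p = 0.524). The only tested heat shock factor was Hsf2, on B, at 0.19 (adjusted p = 0.82). Of 4 other genes listed with the family by name, only Hspb11 was tested (-0.01, adjusted p = 0.984). Its symbol alone does not make it a small heat shock protein.

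**Figure D4:**
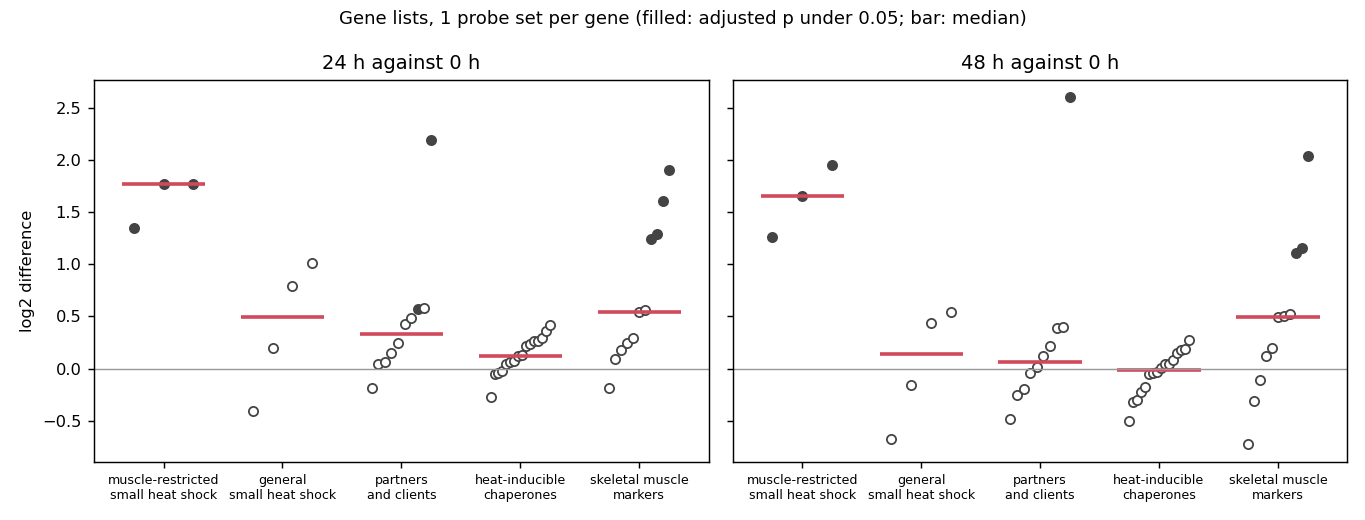
Log2 difference from 0 h (y axis) at 24 h and 48 h (panels), with 1 point per gene, for both classes of small heat shock genes and 3 further lists. Filled points have an adjusted p under 0.05 over all arrays, and the red bar is the median. The medians of the muscle-restricted members, 1.77 and 1.65, stand above those of the other lists.

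The skeletal muscle markers were present at every hour. All 11 were tested on A, with summed intensities of 69872 to 77220 at 0 h, 94772 to 104805 at 24 h and 66569 to 109368 at 48 h. Of these, 4 rose at 24 h and 3 at 48 h over all arrays (1.61% and 1.42% of tested A probe sets), with medians of 0.54 and 0.50. A term for replicate 3 gave 6 called higher at 24 h, against 6% of tested A probe sets, and 5 higher at 48 h, against 5.1%. It also gave 1 called lower at 48 h, for which no share on A is given here. At 48 h the rises were 2.04 for Mef2c (limma adjusted p = 0.0031), 1.15 for Tnnt3 (adjusted p = 0.012) and 1.10 for embryonic myosin Myh3 (adjusted p = 0.0121), and Tnnc1 differed by 0.52 (adjusted p = 0.086). The myogenic factors Myod1 and Myog went against this majority, with -0.73 (adjusted p = 0.115) and -0.31 (adjusted p = 0.279). In bulk RNA of this kind, more cells of a type and more RNA per cell cannot be told apart for any of the genes above.

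Markers of other cell types were mostly dim. On A, 3 of 3 adipocyte genes on the chip (Adipoq, Fabp4 and Lep) were under the filter, with summed intensities of 38.3 to 135.6. Also under it were 4 of 6 fibroblast genes (Col1a1, Dcn, Lum and Pdgfra), 2 of 4 endothelial genes (Cdh5 and Pecam1) and 3 of 5 macrophage genes (Cd68, Itgam and Ptprc). Of 2 Schwann cell genes on the chip, S100b was under it too. Of 6 smooth muscle and pericyte genes, Cnn1, Myh11 and Pdgfrb were below it, and their list summed to intensities of 12592 to 18358 at 0 h, 17921 to 18412 at 24 h and 9733 to 13255 at 48 h. The fibroblast list on A summed to 3239 to 3807 at 0 h, 1928 to 4345 at 24 h and 2284 to 4302.5 at 48 h. Most of that came from Col3a1, which was not dim. Of the tested genes in the lists of other cell types only Tagln was called at 24 or 48 h over all arrays, higher by 0.87 at 24 h (limma adjusted p = 0.0108). When replicate 3 had a term, Rgs5 was also called lower, with log2 differences of -1.90 (24 h, adjusted p = 3.03e-05) and -1.73 (48 h, adjusted p = 8.01e-05). Col1a2 was then called higher by 0.80 at 48 h (adjusted p = 0.00367). Hspb6, which smooth muscle also expresses, had a mean intensity of 5497 at 0 h, 4159 at 24 h and 3451 at 48 h. The smooth muscle sum on A came mostly from Acta2, which read 11585, 13520 and 10306 at 0 h in replicates 1, 2 and 3. The Acta2 probe sets on B are not part of that sum. Tagln and Rgs5, of the same list, moved in opposite directions at 24 h, as given above. Replicate 3 read highest for Hspb6 at every hour, with smooth muscle sums of 9733 to 17921 against 11202 to 21806 in replicates 1 and 2. The part of smooth muscle cells in the level of Hspb6 was not tested.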

How the data were processed

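The authors deposited 1 linear intensity for every probe set and array, with no pooling of replicates. Per the labels, a standard Affymetrix protocol was used, and nothing used here names the software, the probe summary or the genome build. The values show that the authors had scaled each array to a trimmed mean of 500.1 to 500.2, so no further scaling was applied. Precision is limited by 3 arrays per hour and chip.

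Probe sets were named from the platform annotation. Log2(intensity + pseudocount) used 29 on A and 54 on B, the 20th percentile of each chip. The upper 60% by mean log2 value were tested, 13576 and 13507 probe sets (mean level above an intensity of about 96.6 and 153). Each chip was fitted in limma 3.58.1 (lmFit, eBayes with trend; R 4.3.3) over 15 arrays with hour as factor, two-sided, with Benjamini-Hochberg adjustment within chip and comparison, and checked on simulated data. All comparisons against 0 h share the 0 h arrays. An exact permutation test of 3 against 3 arrays cannot go below 0.1.

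Named genes were all members, up to 4 genes per other list by smallest adjusted p at 48 h and up to 2 against its majority, each by its brightest tested probe set (from A where any was tested there, otherwise from B), and the 3 genes most like each member. The members, lists and the split of replicate 3 were chosen with earlier results of these data known. Alternatives covered scaling, pseudocount, filter, trend, array weights, replicate terms and leaving out arrays.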

Additional observations from a re-analysis of the deposited data

How the results depend on the processing

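Of the called log2 changes of Hspb2, Hspb3 and Hspb7 at 24 and 48 h, 96 of 102 values under other settings and 93 of 120 with 1 array left out were still called, and none reversed. The count of called member probe sets depended on how replicate 3 was treated. With a replicate block the counts were 1 at 12 h, 8 at 24 h and 8 at 48 h, with a term for replicate 3 they were 3, 9 and 8, with replicates 1 and 2 alone 6, 8 and 9, and with array quality weights 3, 8 and 8, against 0, 4 and 4. In the same order, the step from 12 to 24 h gave 1, 1, 4 and 4, the step from 24 to 48 h 1, 1, 1 and 1, and the F test 10, 11, 10 and 8 against 4. From 4 to 12 h, replicates 1 and 2 alone gave 3. With only the arrays of the hours compared, 2 were called at 48 h. The share of all tested A probe sets called higher also rose with the treatment of replicate 3. At 12, 24 and 48 h it was 0.545%, 6% and 5.1% with the term for it. For replicates 1 and 2 alone it was 1.86%, 6.52% and 5.95%, and over all arrays 0%, 1.61% and 1.42%. The F test called 14% on A with that term, against 1.97%. No such share is given here for the replicate block, the array weights, only the hours compared or the fits with 1 array left out. For replicates 1 and 2 alone, none is given for the F test or the steps from 4 to 12 and 12 to 24 h. All those counts stand without a background and cannot be read alone. Leaving out 1 array gave 1 to 8 calls at 24 h and 1 to 5 at 48 h. At 24 h there were 2 without replicate 1 or 2 at 0 h, 1 without replicate 1 and 2 without replicate 2 at 24 h, and 8 without replicate 3 at 24 h. At 48 h there was 1 without replicate 1 or 2 at 0 or at 48 h.

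Deviations of same-numbered arrays from the means of their hours were all positively correlated. On A the median correlations were 0.36, 0.36 and 0.63 for replicates 1, 2 and 3 (lowest 0.044), against -0.38 between different numbers. On B they were 0.10, 0.13 and 0.32 (lowest 0.0026), against -0.15. Deviations within an hour cancel, which lowers the correlations between different numbers. Of the arrays, 11 of 15 on A and 9 of 15 on B correlated best with their own number. The labels do not say that numbers pair arrays, so the replicate block is not taken as a pairing from the design.

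Reversals were among uncalled differences. At 4 h, quantile normalization turned 1422943_a_at of Hspb1 to -0.029 and 1421290_at of Hspb7 to 0.0013, and median centring turned the latter to 0.0056. With 1 array left out, Hspb1 ran from -0.12 to 0.51 at 4 h, -0.092 to 0.45 at 24 h and -0.45 to 0.14 at 48 h by 1422943_a_at, and from -0.14 to 0.53, -0.0045 to 0.59 and -0.50 to 0.16 by 1425964_x_at. At 4 h the others ran from -0.054 to 0.39 for Hspb2, -0.11 to 0.28 for Hspb3, -0.31 to 0.017 for Hspb6, -0.33 to 0.28 and -0.60 to 0.093 for Hspb7, and -0.034 to 0.33, -0.0085 to 0.23 and -0.082 to 0.44 for Hspb8. The cause was not tested. The difference of class medians kept its sign under every alternative. A member under the filter has no test, and 3 arrays per hour limit what can be seen at 4 and 12 h.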

Other observations

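Bag3 and Flnc, the co-chaperone of HSPB8 and its filamin client, are given here although the rule for named genes did not choose them, after their values were seen. At 24 h the log2 difference from 0 h was 0.42 for Bag3 (limma adjusted p = 0.428, and 0.0272 with a term for replicate 3) and 0.58 for Flnc on A (adjusted p = 0.287, and 0.00323 with that term). At 48 h it was -0.20 for Bag3 (adjusted p = 0.776) and 0.40 for Flnc (adjusted p = 0.53). Between arrays of the same number at 24 h, Bag3 differed by 0.44, 0.64 and 0.19 and Flnc by 0.66, 0.68 and 0.40 in replicates 1, 2 and 3, all above 0 and smallest in replicate 3. A brighter probe set of Flnc on B went from an intensity of 6544 ± 1411 (SD, n = 3) at 0 h to 19893 ± 11047 at 24 h, a log2 difference of 1.41 (limma adjusted p = 0.322, and 0.0104 with a term for replicate 3). Desmin (Des, by its brighter probe set), the filament that CRYAB binds, differed by 0.25 at 24 h (adjusted p = 0.649) and 0.12 at 48 h (adjusted p = 0.872).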
